A study of Chlamydomonas reinhardtii with 45 samples.

Results

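The mRNA abundance of the HL population was compared with that of the ML population 2 h after the start of the light period (+2), to ask how mRNA levels in the early morning differ between acclimation to high and to medium light. Libraries were taken by their deposited labels, the 3 HL libraries and the 3 ML libraries at +2, which are 6 of the 45 libraries of the series. All libraries are from wild-type *Chlamydomonas reinhardtii* strain CC-5390, a cell-wall-deficient *cw15* strain in which *ARG7* had been restored, so every value is from a single clonal genetic background. The HL population received 1000 and the ML population 200 µmol photons m-2 s-1 during the day, and each was acclimated in turbidostat photobioreactors in Sueoka's High Salt Medium on air levels of CO2, with 12 h of light at 28 °C and 12 h of darkness at 18 °C. The ML population was the study's control. The 3 replicates per group were collected in different weeks, so each is a separate run of a culture. RNA was purified in batches that the labels do not assign to libraries, so a batch effect was not tested. HL and ML libraries at −2, +6, +10, and −10 h (3 each) were used to see whether a difference at +2 was present at other times, and the LL population at +2 (50 µmol photons m-2 s-1, 3 libraries) is given beside a few genes.

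*Chlamydomonas* is a unicellular green alga that divides after dusk when it is kept in day and night cycles. Its chloroplast lowers light harvesting in strong light by reducing the antenna proteins of the photosystems, and it dissipates surplus excitation as heat with the help of LHCSR and PSBS proteins, a process known as qE. A carbon concentrating mechanism (CCM) of carbonic anhydrases and bicarbonate transporters supplies Rubisco with CO2. The cell swims with a pair of cilia, which are built by intraflagellar transport (IFT) and moved by dynein motors under the control of radial spokes and the central pair. Cilia are taken apart before division and rebuilt afterwards.

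Levels are FPKM, fragments scaled to transcript length and sequencing depth, as the authors deposited them. A difference is given as the log2 fold change (HL minus ML) of log2(FPKM + 1) with its SE from limma, and an mRNA was called increased or decreased when this exceeded 1 in size and the Benjamini-Hochberg adjusted p over 14602 tested genes was below 0.01. The added 1 makes the log2 fold change of mRNAs of low level smaller than that of the FPKM themselves. At +2, between 15155 and 15275 genes were above 0 in an HL library and between 15058 and 15350 in an ML library. The depth estimated from the steps between low values was 1.06 to 1.11 times that of ML replicate 1 in the HL libraries and 0.927 to 1.49 times in the ML libraries. Pearson's r between replicates of a group was between 0.998 and 0.999 across genes on FPKM. On log2(FPKM + 1), the scale of the tests, it was between 0.993 and 0.995. FPKM summed to between 7.1e+05 and 7.6e+05 in HL libraries and between 8.5e+05 and 8.7e+05 in ML libraries, with no overlap, and the median of log2(FPKM + 1) was 2.56 in HL and 2.44 in ML, a shift of 0.12. These are bulk samples, so fewer cells with an mRNA and less of it per cell cannot be told apart.

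Increases were more frequent than decreases. In the HL population 658 mRNAs were increased (4.51% of the genes tested) and 213 were decreased (1.46%), so that increases were 75.5% of the 871 calls (5.96%). After scaling each library to the same median, the counts were 533 and 321, and increases were 62.4%. The median log2 fold change over all tested genes was 0.04. Increased mRNAs had a median of 10.3 FPKM in HL and 2.96 FPKM in ML. Decreased mRNAs had medians of 9.53 FPKM in HL and 24.4 FPKM in ML. Over all tested genes the medians were 4.91 FPKM in HL and 4.42 FPKM in ML. The same libraries made the calls, so the levels of called mRNAs are partly fixed by the selection. All 3 HL libraries lay above all 3 ML libraries for 30.3% and below them for 24.1% of all tested genes, 54.4% in all, so that a lack of overlap is common here. It held for 651 of the 658 increases and all 213 decreases. For some lists the number of members with an unadjusted p below 0.05 is given below. The share of all tested genes below 0.05 is not given, so these numbers do not set a list apart from other genes.

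**Figure D1:**
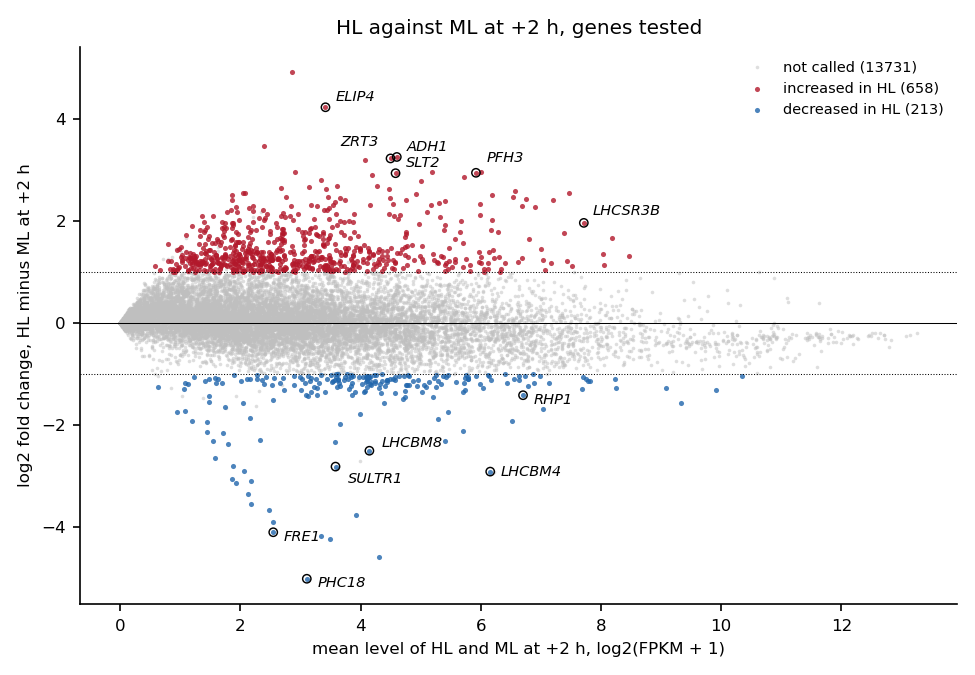
Log2 fold change (HL minus ML at +2 h) of 14602 genes against their mean level, both on log2(FPKM + 1); red points are the 658 increased mRNAs, blue points the 213 decreased mRNAs, gray points genes not called, and circles mark labelled genes. Increases are many and mostly of low to moderate mean level, and the lowest points, among them *PHC18* and *FRE1*, are mRNAs of low to moderate level.

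The largest increase of a gene with a symbol was that of *ELIP4*, which encodes an early light-induced protein of the thylakoid membrane, a relative of the antenna proteins. It had 38.9, 49.7, and 47.2 FPKM in HL libraries and 1.79, 1.09, and 1.49 FPKM in ML libraries. Every HL library was far above every ML library, and the log2 fold change was 4.24 ± 0.10 (SE; limma, adjusted p = 5.08e-27). *ADH1*, the dual alcohol and acetaldehyde dehydrogenase of fermentation, had 77.9, 80.0, and 64.8 FPKM in HL and 7.0, 7.58, and 5.93 FPKM in ML. Its log2 fold change was 3.26 ± 0.15 (adjusted p = 3.43e-18). *FAS2*, which encodes a fasciclin-like protein, had 50.4, 44.8, and 52.6 FPKM in HL and 5.58, 4.91, and 3.24 FPKM in ML, a log2 fold change of 3.19 ± 0.15. The replicates of *FAS2* and *ADH1* lay close together in both populations. *GLD2*, which encodes glucose-6-phosphate dehydrogenase, the entry enzyme of the oxidative pentose phosphate pathway, had 23.4, 24.6, and 29.7 FPKM in HL and 3.22, 2.29, and 2.94 FPKM in ML, a log2 fold change of 2.82 ± 0.18. The other large increases were *ZRT3*, *CDO1*, *PFH3*, and *SLT2*, which concern metals, cysteine, protein hydroxylation, and sulfate and are described further on. Among genes without a symbol, Cre10.g460326 had 32.7, 52.1, and 29.9 FPKM in HL and was listed at 0 in ML replicates 2 and 3, with 0.971 FPKM in replicate 1. Cre16.g801969 was less even, with 24.6, 8.62, and 16.4 FPKM in HL and 1.37, 0.306, and 0 FPKM in ML. Its log2 fold change was 3.48 ± 0.99 (adjusted p = 0.00474), and the call was lost without HL replicate 1 (adjusted p = 0.0267), HL replicate 3 (0.0154), ML replicate 2 (0.0166), or ML replicate 3 (0.025), and also after quantile normalization (0.0124).

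Among the effectors of qE, 3 of the 4 tested members were increased (75%, against 4.51% of all genes). The median log2 fold change of the list was 1.87. *LHCSR3B* had 446, 400, and 377 FPKM in HL libraries and 146, 95, and 79.5 FPKM in ML libraries (log2 fold change 1.97 ± 0.24, adjusted p = 3.05e-08). Its near-identical neighbor *LHCSR3A* had 336, 306, and 273 FPKM in HL and 115, 81.7, and 74.0 FPKM in ML (1.77 ± 0.24), and fragments could have been divided between both copies. *PSBS2*, a gene for the PSBS protein, was much lower in level, with 4.57, 4.05, and 4.34 FPKM in HL and 0.333, 0.364, and 0.0449 FPKM in ML (2.10 ± 0.11, adjusted p = 3.46e-16). For all of them the populations were well separated. *LHCSR1* was not called. It had 335, 371, and 457 FPKM in HL and 246, 241, and 254 FPKM in ML, a log2 fold change of 0.64 ± 0.30 (adjusted p = 0.0887). *PSBS1* did not reach the minimum level for testing.

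Of the 12 ELIP and other LHC-like genes, 3 were increased (25%, against 4.51% of all genes) and none was decreased, with a median of 0.36. Beside *ELIP4*, these were *ELIP9*, with 187, 230, and 237 FPKM in HL and 37.2, 35.7, and 41.4 FPKM in ML (2.48 ± 0.27, lost with a pseudocount of 0.01 at an adjusted p of 0.0445), and *ELIP10*, with 27.6, 27.9, and 33.5 FPKM in HL and 5.21, 5.71, and 3.50 FPKM in ML (2.42 ± 0.17). The family was thus uneven in its response. *ELIP8*, a member of high level, had 562, 513, and 548 FPKM in HL and 666, 661, and 617 FPKM in ML, a log2 fold change of −0.26 ± 0.18 (adjusted p = 0.274). *ELIP2*, *ELIP3*, and *ELIP6* had log2 fold changes of −0.03, 0.11, and −0.43, none past the threshold. *ELIP5* and *ELIP7* had 0.46 and 0.70, and *LHL4*, an LHC-like gene, had 0.44 ± 0.14 (adjusted p = 0.0142). *CVDE1*, the violaxanthin de-epoxidase of the xanthophyll cycle, had 31.0, 33.3, and 29.2 FPKM in HL and 24.0, 19.9, and 18.2 FPKM in ML (0.57 ± 0.13, adjusted p = 0.000417), a difference below the fold required. *ZEP1*, the epoxidase of the reverse reaction, had −0.09 ± 0.10. None of the 15 carotenoid biosynthesis genes was called by limma (11 had an unadjusted p below 0.05, and 1 was called with a pseudocount of 0.1), and the most abundant, *GGPS1*, had a mean of 357 FPKM in HL and 556 FPKM in ML.

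The antenna of PSII moved the other way. Of 12 *LHCBM* and *LHCB* genes, 5 were decreased (41.7%, against 1.46% of all genes) and none increased. Means were lower in HL for 10 of them, and the median was −0.99. *LHCBM4* had 25.2, 28.3, and 21.4 FPKM in HL libraries and 211, 195, and 178 FPKM in ML libraries. The lowest ML library was thus far above the highest HL library, and the log2 fold change was −2.92 ± 0.22 (adjusted p = 1.01e-12). *LHCBM8* had 6.79, 7.21, and 5.11 FPKM in HL and 34.6, 53.9, and 35.9 FPKM in ML (−2.51 ± 0.19). *LHCBM6*, *LHCBM7*, and *LHCBM2* were also decreased, by log2 fold changes of −1.57, −1.31, and −1.28. In the LL population at +2, *LHCBM4* had a mean of 1495 FPKM. *LHCBM9*, whose mRNA is known for induction by nutrient stress, had 2.69, 7.63, and 4.88 FPKM in HL and 5.5, 2.69, and 4.32 FPKM in ML, which overlap. *LHCBM* genes share long stretches of sequence, so values of single members are uncertain.

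The PSI antenna and the photosystem subunits were lower by smaller amounts. All 9 *LHCA* genes were lower in HL, and *LHCA4* alone was called, with 917, 959, and 847 FPKM in HL and 1820, 1951, and 1811 FPKM in ML (−1.04 ± 0.14). The call was lost without HL replicate 3 (−0.99) and after quantile normalization (−0.90). None of 8 nucleus-encoded PSII genes and none of 10 PSI genes was called by limma, and 7 and 10 of them had an unadjusted p below 0.05. Every member was lower in HL, with medians of −0.64 and −0.54. These medians were −0.33 and −0.24 after quantile normalization, and −0.76 and −0.66 with median scaling. *PSBR1* had a mean of 6068 FPKM in HL and 8353 FPKM in ML, and *PSAE1* of 2683 FPKM in HL and 3894 FPKM in ML. Chlorophyll and heme biosynthesis had a median of −0.70, and 24 of 26 genes were lower in HL, with no decrease past the threshold. With median scaling 3 of these were called decreased and the median was −0.82, and after quantile normalization it was −0.43. The exceptions were *PBGD2*, which was near 0 FPKM in every library, and *HMOX2*, a heme oxygenase, which increased with 4.75, 4.59, and 3.06 FPKM in HL and 0.465, 1.04, and 0.669 FPKM in ML (1.57 ± 0.13). Of the 15 Calvin cycle genes none was called by limma, and 11 had an unadjusted p below 0.05. *RBCS2*, the Rubisco small subunit, had a mean of 6466 FPKM in HL and 8107 FPKM in ML, and the median of the list was −0.38. This median was −0.09 after quantile normalization and −0.50 with median scaling. Cytochrome b6f, ATP synthase, and carrier genes had a median of −0.39, which was 0.03 after quantile normalization.

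Genes of the CCM did not move together. Of 43 genes, 4 were increased (9.3%, against 4.51% of all genes) and 2 decreased (4.65%, against 1.46%), with a median of 0.20. Without ML replicate 1, 8 were increased. *LCR1*, the Myb regulator of the low CO2 response, had 108, 101, and 91.4 FPKM in HL libraries and 43.5, 32.9, and 36.2 FPKM in ML libraries (1.40 ± 0.13, adjusted p = 6.96e-11). *CCM1*, the master regulator of the pathway, had 29.0, 29.9, and 34.5 FPKM in HL and 33.0, 33.6, and 34.9 FPKM in ML, which overlap (−0.12 ± 0.10). *LCI34*, a low-CO2-inducible gene, had 20.7, 21.3, and 15.2 FPKM in HL and 4.11, 2.43, and 2.65 FPKM in ML (2.31 ± 0.18). The 2 decreases were in *RHP1* and *CAH2*. *RHP1*, a Rhesus-like channel known to be expressed at high CO2, had 64.6, 64.6, and 59.0 FPKM in HL and 166, 167, and 175 FPKM in ML (−1.42 ± 0.08). *CAH2*, a periplasmic carbonic anhydrase, had 42.8, 47.2, and 48.4 FPKM in HL and 152, 183, and 202 FPKM in ML (−1.92 ± 0.17). In both, every HL library was far below every ML library.

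The most abundant CCM mRNAs differed by less than the fold required. *HLA3*, a bicarbonate transporter of the plasma membrane, had a mean of 3614 FPKM in HL and 2785 FPKM in ML (0.38 ± 0.23, adjusted p = 0.196). *CAH1*, the periplasmic carbonic anhydrase induced by low CO2, had 1305, 1444, and 1319 FPKM in HL and 897, 738, and 990 FPKM in ML (0.64 ± 0.32, adjusted p = 0.114). The mitochondrial carbonic anhydrases came closest. *CAH4* had 2448, 2279, and 1936 FPKM in HL and 1430, 1012, and 940 FPKM in ML (0.996 ± 0.27, adjusted p = 0.00327), and *CAH5* had 0.88 ± 0.26 (adjusted p = 0.00679). *CAH4* passed without HL replicate 3 (1.09) and without ML replicate 1 (1.18), and *CAH5* without ML replicate 1 (1.04). *LCI1*, *CCP1*, *LCIE1*, *LCID1*, *CAH3*, *NAR1B*, and *CCP2* had log2 fold changes of 0.41, 0.50, 0.86, 0.12, −0.10, −0.30, and −0.36, none past both thresholds, and *LCIE1* passed without ML replicate 1 (1.02). The pairs *CAH4* and *CAH5*, and *CCP1* and *CCP2*, are near copies between which fragments could have been divided.

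**Figure D2:**
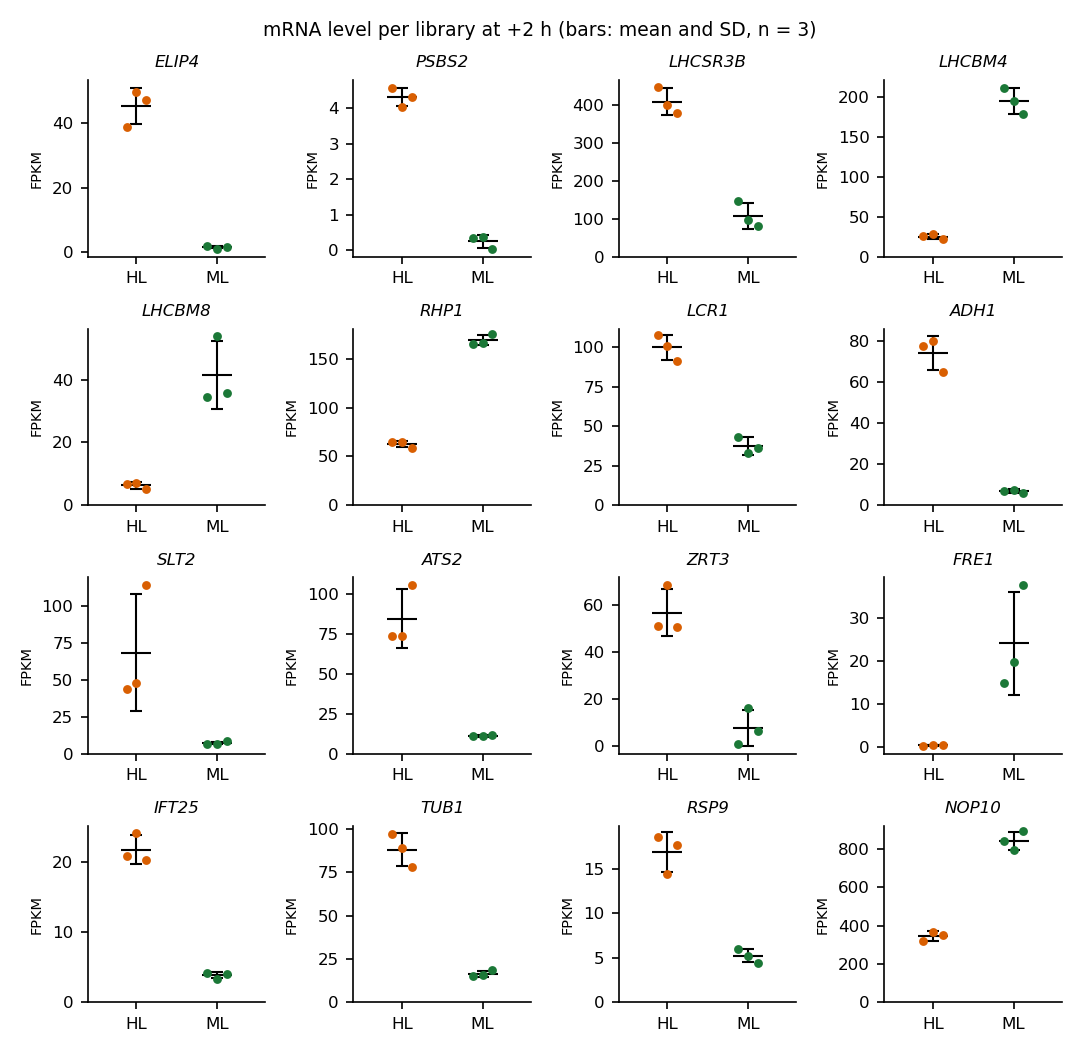
FPKM of 16 mRNAs in each HL (orange, left) and ML (green, right) library at +2 h, with the mean and SD of the 3 replicates; each panel has its own axis. HL and ML points do not overlap in any panel, and the spread is wide in HL for *SLT2* (43.9 to 114 FPKM) and in ML for *ZRT3* (0.760 to 16.1 FPKM).

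The largest group of increases was of cilia genes. The 5 lists of IFT, dynein, radial spoke and central pair, flagellar associated protein (FAP), and tubulin and kinesin genes held 486 tested genes, of which 136 were increased (28.0%, against 4.51% of all genes) and 5 decreased. They were 20.7% of all increases. Of 46 IFT, BBSome, and transition zone genes, 23 were increased and none decreased, with a median of 0.98. *IFT25* had 20.9, 24.1, and 20.3 FPKM in HL libraries and 4.22, 3.38, and 4.03 FPKM in ML libraries (2.22 ± 0.15), and *IFT52*, a core subunit of IFT complex B, had 27.5, 22.9, and 24.7 FPKM in HL and 7.14, 5.17, and 4.64 FPKM in ML (1.98 ± 0.14). The libraries of the populations were far apart for both. Of 59 dynein and dynein assembly genes, 35 were increased and none decreased (median 1.15). *DIC2*, an intermediate chain of the outer arm, had 13.0, 9.86, and 10.8 FPKM in HL and 2.78, 2.05, and 2.29 FPKM in ML (1.86 ± 0.17), and *DLT1*, a Tctex1-like light chain, had 20.7, 16.2, and 17.7 FPKM in HL and 5.19, 3.67, and 4.84 FPKM in ML (1.79 ± 0.17).

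Radial spoke and central pair genes had the highest share, with 17 of 22 increased and none decreased (median 1.21). *PF16*, a protein of the central pair, had 14.8, 12.1, and 14 FPKM in HL libraries and 3.40, 3.08, and 4.80 FPKM in ML libraries (1.63 ± 0.21), and *RSP9*, a protein of the spoke head, had 18.5, 14.4, and 17.7 FPKM in HL and 5.93, 5.25, and 4.46 FPKM in ML (1.52 ± 0.14). Of 333 FAP genes, 57 were increased and 4 decreased (median 0.54). The largest increase among them was *FAP173*, with 23.3, 24.4, and 21.8 FPKM in HL and 4.65, 3.94, and 3.62 FPKM in ML. Among 26 tubulin and kinesin genes, 4 were increased, and these were the alpha tubulin genes *TUA1* and *TUA2* and the beta tubulin genes *TUB1* and *TUB2*. *TUB1* had 97.1, 88.6, and 78.1 FPKM in HL and 15.3, 15.5, and 18.5 FPKM in ML (2.35 ± 0.16), and *TUA1* had 149, 125, and 116 FPKM in HL and 30.5, 23.6, and 34.0 FPKM in ML (2.12 ± 0.18). The copies of each tubulin are near-identical in sequence, so the division between them is uncertain. All of these lists kept a positive median under median scaling and quantile normalization. Quantile normalization left 18 IFT, 26 dynein, 9 radial spoke and central pair, and 28 FAP genes increased, and a pseudocount of 0.1 gave 117 FAP genes.

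Genes for the uptake and reduction of sulfate increased widely. This list of 23 genes was assembled after the values had been seen, as were the zinc, tricarboxylic acid cycle, and autophagy lists, and their counts therefore describe these libraries only. Of the 23 genes 13 were increased and 1 was decreased, with a median of 1.14. Median scaling and quantile normalization each gave 12 increases. *SLT2*, a sodium and sulfate co-transporter, had 43.9, 47.6, and 114 FPKM in HL libraries and 6.66, 6.72, and 8.33 FPKM in ML libraries (2.94 ± 0.34, adjusted p = 1.28e-08). *SULTR2*, a sulfate transporter of the plasma membrane known for induction by sulfur limitation, had 368, 380, and 535 FPKM in HL and 65.7, 58.5, and 93.8 FPKM in ML (2.55 ± 0.35). HL replicate 3 was the highest HL library for both. The subunits of the chloroplast sulfate transporter followed, with log2 fold changes of 1.29 for *SULP1*, 1.18 for *SULP2*, 1.19 for *SULP3*, and 1.27 for *SABC1*. *ATS2*, an ATP sulfurylase, which activates sulfate, had 73.8, 73.7, and 105 FPKM in HL and 10.9, 10.9, and 11.5 FPKM in ML (2.79 ± 0.20, adjusted p = 3.65e-13). The sulfite reductases *SIR1* (2.15 ± 0.24) and *SIR2* (1.14 ± 0.15) and *SAT1*, the serine O-acetyltransferase that makes the acceptor for sulfide (2.30 ± 0.28), were also increased.

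Members of the same pathway that did not follow were *ATS1*, with 496, 515, and 616 FPKM in HL libraries and 473, 461, and 485 FPKM in ML libraries (0.19 ± 0.14, adjusted p = 0.323), and the APS reductase *APSR1* (−0.02 ± 0.16). *SULTR1*, another sulfate transporter, was decreased, with 5.03, 5.30, and 1.01 FPKM in HL and 28.0, 30.5, and 28.5 FPKM in ML (−2.82 ± 0.25, adjusted p = 3.25e-11). HL replicate 3, which was highest for *SLT2*, was lowest for *SULTR1*. *CDO1*, a cysteine dioxygenase, had 18.7, 16.9, and 25 FPKM in HL and 1.69, 1.51, and 1.82 FPKM in ML (2.97 ± 0.29), again with replicate 3 the highest. *SLT1*, a further sodium and sulfate co-transporter, had 32.0, 29.9, and 119 FPKM in HL and 7.43, 7.0, and 6.56 FPKM in ML (2.63 ± 0.49). Between 12 and 14 genes of the list were increased when any of the 6 libraries was left out.

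Metal genes changed in both directions. Of 20 genes for zinc transporters and chaperones 7 were increased (median 0.61), and these were *ZRT1*, *ZRT2*, *ZRT3*, *ZRT4*, *ZCP1*, *ZCP2*, and *MTP1*. *ZRT3*, a transporter that responds to zinc nutrition, had 51.4, 68.6, and 50.9 FPKM in HL libraries and 0.760, 16.1, and 6.55 FPKM in ML libraries (3.23 ± 0.36, adjusted p = 4.58e-09). *ZCP2*, a zinc chaperone, had 169, 218, and 198 FPKM in HL and 9.43, 90.6, and 34.5 FPKM in ML (2.59 ± 0.35). The 3 ML replicates stood apart from each other in both, with replicate 2 highest and replicate 1 lowest. In a fit of only the 6 libraries at +2, 1 of the zinc genes was called. *PFH3*, a prolyl 4-hydroxylase, had 149, 177, and 135 FPKM in HL and 8.60, 40.6, and 18.7 FPKM in ML (2.95 ± 0.31), and *CYC6*, the heme-containing replacement of plastocyanin that is known for induction under copper deficiency, had 350, 516, and 302 FPKM in HL and 93.1, 325, and 108 FPKM in ML (1.35 ± 0.38, adjusted p = 0.00502). Both showed the same order of ML replicates, and *CYC6* overlapped between populations. The *CYC6* call was lost without HL replicate 1 (adjusted p = 0.0116), HL replicate 2 (0.0401), ML replicate 1 (0.0571), or ML replicate 3 (0.0421), and also with a pseudocount of 0.1 (0.0217) or only the libraries at +2 (0.0663).

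Of 13 iron uptake and ferritin genes, 4 were decreased (30.8%, against 1.46% of all genes) and 1 increased (7.69%, against 4.51%), with a median of −0.62. *FRE1*, a ferric-chelate reductase, had 0.273, 0.337, and 0.456 FPKM in HL libraries and 14.8, 19.9, and 37.7 FPKM in ML libraries (−4.11 ± 0.27, adjusted p = 4.44e-14). *FEA1*, a secreted protein of iron assimilation, had 0.335, 0.0623, and 0.209 FPKM in HL and 6.14, 17.0, and 6.77 FPKM in ML (−3.06 ± 0.24). These mRNAs were near 0 in HL and clearly present in ML, and in the LL population their means were 55.9 and 26.2 FPKM. *FOX1*, the multicopper ferroxidase of the high-affinity pathway, had 22.4, 28.6, and 26.2 FPKM in HL and 51.6, 61.1, and 48.0 FPKM in ML (−1.03 ± 0.15), whereas *FOX2*, a second ferroxidase gene, was increased (1.27 ± 0.16). *TEF22* had −1.92 ± 0.17.

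Nitrogen genes were increased in 6 of 31 cases (19.4%, against 4.51% of all genes) and decreased in none (median 0.24). *NII1*, the chloroplast nitrite reductase, had 11.2, 9.20, and 8.83 FPKM in HL libraries and 2.12, 1.93, and 0.842 FPKM in ML libraries (2.06 ± 0.16), and *UOX1*, a urate oxidase, had 4.67, 6.97, and 6.89 FPKM in HL and 0.458, 1.56, and 0.595 FPKM in ML (1.97 ± 0.27). Both are mRNAs of low level in ML. Among 17 photorespiration genes, 2 were increased (11.8%, against 4.51% of all genes). *AGT2*, an alanine and glyoxylate transaminase, had 17.0, 16.4, and 11.5 FPKM in HL and 1.78, 3.01, and 1.89 FPKM in ML (2.31 ± 0.14), and *SGA1*, the serine and glyoxylate aminotransferase, had 98.0, 87.9, and 81.1 FPKM in HL and 32.6, 29.2, and 25.8 FPKM in ML (1.58 ± 0.10). The median of the list was 0.09, and no other member was called.

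Increases were also found in the tricarboxylic acid cycle, in fermentation, and among terminal oxidases. Of 17 tricarboxylic acid cycle and citrate lyase genes, 7 were increased and none decreased, with a median of 0.94. *SCLA1*, the alpha chain of succinyl-CoA ligase, had 22.0, 25.9, and 16.9 FPKM in HL libraries and 4.56, 5.17, and 3.53 FPKM in ML libraries (2.05 ± 0.12). *IDH1*, an NAD-dependent isocitrate dehydrogenase, had 10.3, 11.5, and 10.0 FPKM in HL and 2.86, 3.34, and 2.12 FPKM in ML (1.63 ± 0.12), and *SDH2*, the iron-sulfur subunit of succinate dehydrogenase, had 87.5, 85.2, and 75.1 FPKM in HL and 44.9, 36.2, and 30.5 FPKM in ML (1.14 ± 0.11). *CIS1*, the mitochondrial citrate synthase, had 58.6, 63.2, and 60.4 FPKM in HL and 58.7, 61.0, and 64.7 FPKM in ML. The cycle thus had increases in some steps, with *CIS1* overlapping between the populations. Of 91 respiratory chain genes 3 were increased (3.3%, below the 4.51% of all genes), *COX11* and the succinate dehydrogenase genes *SDH2* and *SDH4*, which are also among the 7 of the cycle, and the median was −0.03. Of 17 hydrogenase and fermentation genes 3 were increased (17.6%, against 4.51% of all genes), *ADH1*, *PDC3* (1.28 ± 0.17), and *PAT2*. Among terminal oxidases, *AOX1* of the mitochondrion was increased, with 8.30, 7.04, and 5.57 FPKM in HL and 1.09, 0.846, and 0.889 FPKM in ML (2.02 ± 0.16), and so was *PTOX2* of the plastid, with 12.4, 12.1, and 9.10 FPKM in HL and 2.78, 2.52, and 2.36 FPKM in ML (1.77 ± 0.15). The other plastid terminal oxidase gene, *PTOX1*, had 10.3, 8.51, and 9.31 FPKM in HL and 13.4, 14, and 13.1 FPKM in ML (−0.49) and was not called. *AOX1* and *PTOX2* were the called members among 11 genes of cyclic and alternative electron flow (18.2%, against 4.51% of all genes).

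Antioxidant and thiol redox genes were increased in 8 of 54 cases (14.8%, against 4.51% of all genes) and decreased in none (median 0.18). *GSTS3*, a glutathione S-transferase, had 16.5, 18.5, and 15 FPKM in HL libraries and 5.23, 5.67, and 4.35 FPKM in ML libraries (1.54 ± 0.11), and *MSD1*, a manganese superoxide dismutase, had 131, 128, and 101 FPKM in HL and 53.5, 41.5, and 36.3 FPKM in ML (1.44 ± 0.20). Median scaling gave 5 increases. Of 40 chloroplast protease and repair genes, *CLPX1* (1.98 ± 0.09) and *DEG1A* (1.25 ± 0.16) were increased (5%, near the 4.51% of all genes). None of 37 heat shock and chaperone genes was called by limma (29 had an unadjusted p below 0.05, and the median was −0.33), and the most abundant, *HSP70B*, had a mean of 672 FPKM in HL and 868 FPKM in ML. Pseudocounts of 0.1 and 0.01 gave 1 and 2 increases, and leaving out ML replicate 2 gave 2. All 29 proteasome genes were higher in HL with a median of 0.59, and *RPN10*, the ubiquitin receptor, was the called member (1.06 ± 0.11), a call lost under median scaling and quantile normalization (0.94 in each). Of 14 autophagy genes, a list assembled after the values had been seen, 3 were increased (21.4%). *ATG8*, the marker of the autophagosome membrane, had 149, 158, and 136 FPKM in HL and 67.4, 66.7, and 56.5 FPKM in ML (1.2 ± 0.11). Starch and lipid lists had shares of increases near the 4.51% of all genes. Starch had 2 increases among 31 genes (6.45%), *PGM2* (1.37 ± 0.15) and the debranching enzyme *ISA3* (1.21 ± 0.11). Lipid genes had 2 increases, *PLAP10* (2.15 ± 0.15) and *PDAT1* (1.19 ± 0.14), among 48 (4.17%). The *PDAT1* call was lost without HL replicate 1 (0.99) and after quantile normalization (0.91).

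Genes for building ribosomes were lower. Of 16 ribosome biogenesis and nucleolar genes, 9 were decreased and none increased, and 15 were lower in HL (median −1.0). The background of decreases was 1.46%. *NOP10*, of the snoRNP that guides pseudouridylation, had 319, 369, and 350 FPKM in HL libraries and 838, 793, and 890 FPKM in ML libraries (−1.28 ± 0.16, adjusted p = 3.40e-08). *NOP58*, of the snoRNP that guides methylation, had 88.7, 93.1, and 95.9 FPKM in HL and 198, 202, and 232 FPKM in ML (−1.18 ± 0.14). The populations did not overlap in either. Quantile normalization gave 1 decrease, with a median of −0.79 (*NOP58* −0.94, *NOP10* −0.85), and without HL replicate 3 or without ML replicate 3 there were 6. Ribosomal proteins themselves differed less. Of 75 cytosolic ribosomal protein genes 74 were lower in HL, with a median of −0.26 that was 0.03 after quantile normalization. Of 37 chloroplast ones 36 were lower, with a median of −0.39 that was −0.07 after quantile normalization. With median scaling these medians were −0.38 and −0.51. The exceptions were *RPS27E2*, with 30.5, 36.2, and 34.4 FPKM in HL and 8.70, 18.7, and 10.3 FPKM in ML (1.42 ± 0.22), and *PSRP1*, a plastid-specific ribosomal protein (1.85 ± 0.17). None of 36 aminoacyl-tRNA synthetase genes was called by limma (28 had an unadjusted p below 0.05, and median scaling gave 1 decrease), all 36 were lower, and the median was −0.44. *TSX2*, the most abundant, had a mean of 144 FPKM in HL and 218 FPKM in ML. None of 72 mitochondrial ribosomal protein genes was called by limma (11 had an unadjusted p below 0.05), and *MRPL10* had −0.40 ± 0.10.

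Genes of division were at low level in both populations. The 13 markers of S and M phase summed to between 23.25 and 27.26 FPKM in HL libraries and between 15.86 and 22.02 FPKM in ML libraries, and none of them was listed at 0. *PCN1*, the sliding clamp of replication, was the called marker, with 7.85, 9.97, and 8.23 FPKM in HL and 3.35, 2.66, and 3.02 FPKM in ML (1.27 ± 0.28, adjusted p = 0.000428). The mitotic kinase *CDKB1* had 0.398, 0.497, and 0.547 FPKM in HL and 0.498, 0.539, and 0.896 FPKM in ML, which overlap. The sums include *PCN1*, which changed most among the markers. The median log2 fold change of the 13 markers was 0.11, and −0.01 with median scaling. The part of dividing cells in the other results was not tested. Of 37 replication genes 2 were increased (5.41%, near the 4.51% of all genes), *PCN1* and *RFC5* (1.2 ± 0.16, lost after quantile normalization at 0.93). Of 25 cyclin and kinase genes 2 were increased (8%), the D-type cyclin *CYCD5* (1.26 ± 0.11) and *CKS1* (1.31 ± 0.29). No histone gene of the 37 tested and no clock or photoreceptor gene of the 22 tested was called by limma (5 and 11 had an unadjusted p below 0.05), and the most abundant of each, *HAV2* and *COP21*, had 0.44 and −0.54.

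A small group of decreased mRNAs was uneven among the ML replicates and low in HL. *PHC18*, a pherophorin-like flagellar associated protein, had 0.193, 0.174, and 0.178 FPKM in HL libraries and 8.70, 42.7, and 133 FPKM in ML libraries. Its log2 fold change of −5.02 ± 0.56 was the largest decrease of a gene with a symbol. *FAP199*, with a lipase domain, had 0.105, 0.0709, and 0.688 FPKM in HL and 2.15, 8.74, and 26.3 FPKM in ML (−2.91 ± 0.48). Cre09.g398450 had 2.18, 1.6, and 5.10 FPKM in HL and 48.2, 92.4, and 156 FPKM in ML, and Cre09.g398500 had 0.841, 1.28, and 2.41 FPKM in HL and 25.4, 47.7, and 76.2 FPKM in ML. In each, ML replicate 3 was highest and ML replicate 1 lowest, and even replicate 1 was above every HL library. *FAP41* shared this order (0.117, 0.0821, and 0.286 FPKM in HL, and 0.942, 2.23, and 13.0 FPKM in ML), and its decrease of −1.94 ± 0.59 (adjusted p = 0.00845) was lost without HL replicate 1 (adjusted p = 0.0258), HL replicate 2 (0.0273), HL replicate 3 (0.0175), ML replicate 2 (0.0102), or ML replicate 3 (0.157). In LL libraries at +2, *PHC18* had 0.141, 0.410, and 0.224 FPKM. The LL means of Cre09.g398450, Cre09.g398500, *FAP199*, and *FAP41* were 2.25, 1.44, 0.225, and 0.148 FPKM. These mRNAs were thus low in LL as well as in HL, and higher in ML alone. At −2 *PHC18* had 0.217, 0.198, and 0.251 FPKM in HL libraries and 3.15, 11, and 47.1 FPKM in ML libraries, in the same order of replicates. Of the 57 pherophorin and matrix metalloproteinase genes, *PHC18* was the called decrease and *PHC8* (1.23 ± 0.24) the called increase. Each was 1.75% of the list, against 1.46% decreased and 4.51% increased among all genes.

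**Figure D3:**
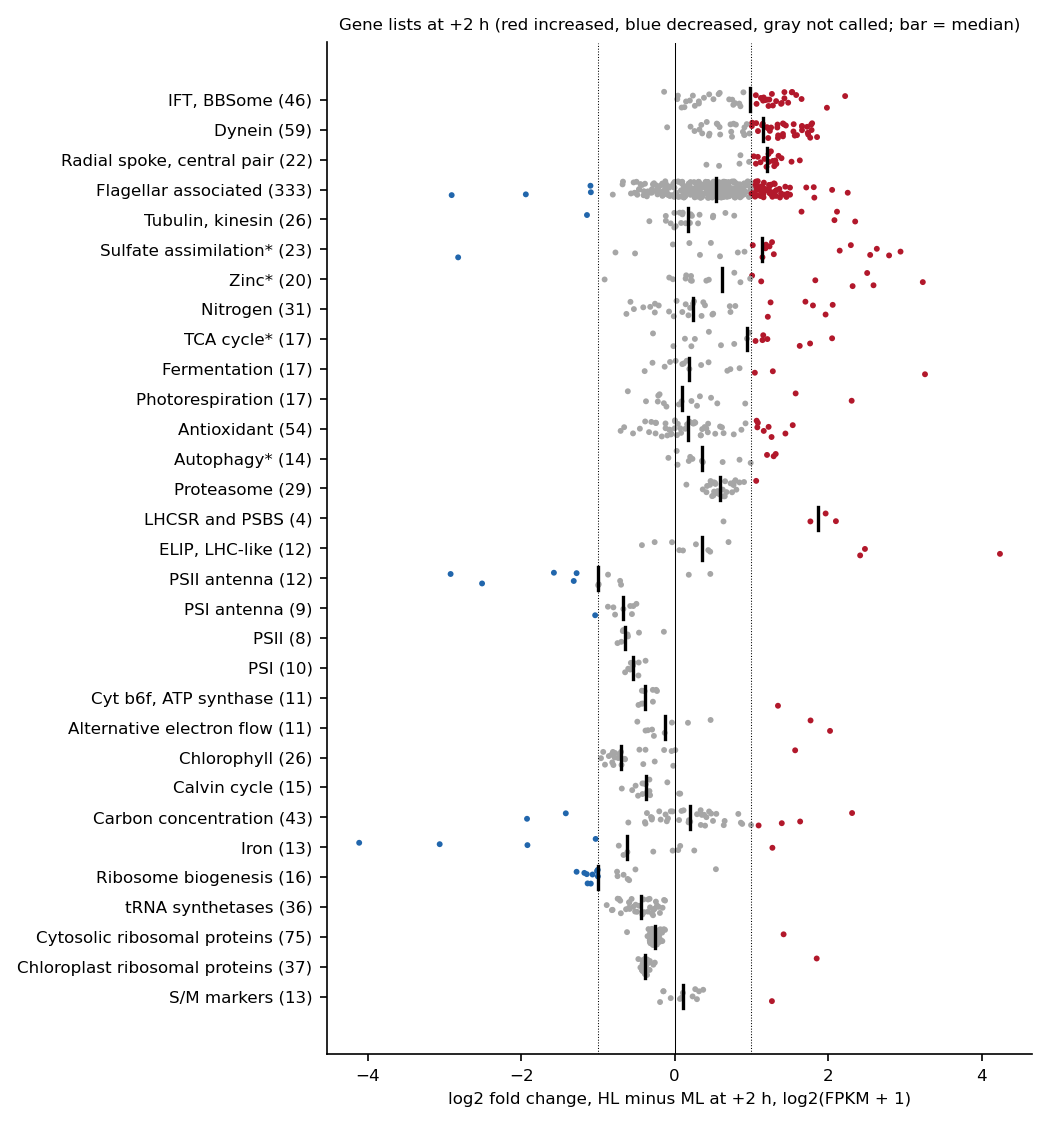
Log2 fold change (HL minus ML at +2 h) of each tested member of 31 gene lists, with the number of tested members in parentheses; red members were increased, blue decreased, and gray not called, and the bar is the list's median. Cilia, sulfate, and tricarboxylic acid (TCA) cycle lists lie to the right, PSII antenna and ribosome biogenesis to the left; an asterisk marks lists assembled after the values had been seen.

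Most mRNAs called at +2 were not called at any single other time of day. Of the 658 mRNAs increased at +2, 29 were increased at −2, 33 at +6, 79 at +10, and 4 at −10, where 34, 200, 473, and 114 mRNAs were increased in all (0.233%, 1.37%, 3.24%, and 0.781% of genes tested). Their median log2 fold change was 0.08 at −2, 0.14 at +6, 0.18 at +10, and 0.00 at −10. Of the 213 mRNAs decreased at +2, 19 were decreased at −2, 25 at +6, 10 at +10, and 1 at −10, against 0.274%, 0.644%, 0.438%, and 0.294% of genes tested. The median log2 fold change of the decreased set was −0.13 at −2, 0.38 at +6, 0.05 at +10, and −0.21 at −10. At these times 0, 18, 4, and 6 of the set were increased. Contrasts within the limma model tested how far the HL effect at +2 differed from that at −2 and at +6. Differences from +10 and −10 were not tested. The effect at +2 exceeded that at −2 for 586 mRNAs (4.01%) and fell below it for 169 (1.16%), and among the 658 increases the first held for 476. Against +6 the effect at +2 was higher for 611 mRNAs (4.18%) and lower for 588 (4.03%). Both tests use the HL and ML libraries at +2 that also made the calls.

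Opposite calls at +2 and +6 were found for 42 mRNAs, 24 of them increased at +2 and decreased at +6, and 18 the other way. Several sulfate genes were increased at +2 and decreased at +6, and the genes named here were chosen after their values were seen. *SLT2* had 23.2, 26.8, and 28.8 FPKM in HL libraries and 52.2, 52.7, and 166 FPKM in ML libraries at +6, a log2 fold change of −1.52, against 2.94 at +2. *SULP2*, *SULP3*, *SABC1*, *SIR2*, and *OASTL3* had −1.35, −1.25, −1.02, −1.15, and −1.31 at +6, and *UPM1*, a methyltransferase of siroheme synthesis, had −1.59. In ML at +6, replicate 3 was the highest library for *SLT2*. Of the 23 sulfate genes, the effect at +2 was higher than at +6 for 19 and lower for 2. The sulfate list was already higher in HL before dawn. At −2 its median was 0.56 and 7 of the 23 genes were increased, against 0.233% of all genes, and the effect at +2 was higher than at −2 for 4 and lower for 2. Ribosome biogenesis went the other way. At +6 *NOP58* had 52.6, 48.2, and 47.3 FPKM in HL and 36.3, 30.7, and 22.4 FPKM in ML, a log2 fold change of 0.73, and 12 of the 16 genes of the list had a lower effect at +2 than at +6. *NEP1*, *SUR6*, and *RBG1*, whose products act in ribosome assembly, were decreased at +2 and increased at +6.

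The PSII antenna was lower in HL in the light and not in the dark. Its medians were −0.99 at +2, −0.97 at +6, and −0.59 at +10, against 0.21 at −2 and 0.55 at −10, where 4 of 12 genes were increased. The effect at +2 was lower than at −2 for 9 of 12 genes and lower than at +6 for 1. For cilia lists the medians at +6 were positive but smaller, 0.45 for IFT and 0.37 for dynein genes, and the effect was higher at +2 for 5 of 46 and 16 of 59 genes. At −2 the same medians were 0.07 and 0.09, and the effect was higher at +2 for 20 and 31 genes. Cilia genes were also increased late in the day. At +10, where 3.24% of all genes were increased, the medians were 0.67 for IFT (9 increased), 0.65 for dynein (11), 0.96 for radial spoke and central pair (11), and 0.63 for FAP genes (70), and the FAP values were above the median of 0.54 and the 57 increases at +2. The difference between +2 and +10 was not tested. *ELIP9*, *ELIP5*, *ELIP7*, and *LHL4* had larger effects at +6 than at +2, with log2 fold changes of 4.32, 1.62, 1.81, and 2.21 at +6. *ELIP4* had 4.24 at +2 and 2.49 at +6.

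**Figure D4:**
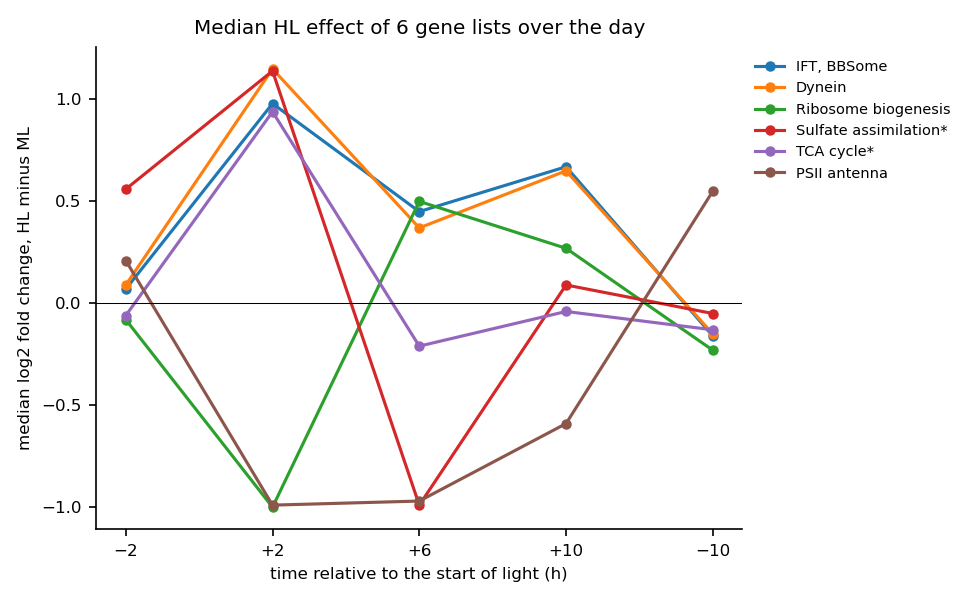
Median log2 fold change (HL minus ML) of the members of 6 gene lists at the 5 timepoints, in hours relative to the start of light. The sulfate list has 1.14 at +2 and −0.99 at +6, ribosome biogenesis −1.0 at +2 and 0.50 at +6, and the PSII antenna −0.99 and −0.97, but 0.21 at −2 and 0.55 at −10; an asterisk marks lists assembled after the values had been seen.

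The called mRNAs were placed in the day of the ML population by their level at +6 minus that at −2, as a description with no test. Decreased mRNAs were mostly of higher level before dawn, with a median of −1.84 on the log2 scale, and 147 of 213 (69.0%) lay below −1, against 19.6% of all tested genes. Increased mRNAs fell on either side, with 257 of 658 (39.1%) above 1 and 221 (33.6%) below −1, against 20.9% and 19.6% of all tested genes. The median of IFT genes was −2.56 and that of sulfate genes 2.58, so the increases joined genes of the late night and genes of the day. In a further description, chosen after the data had been seen, +2 was the lowest of −2, +2, and +6 for 208 (31.6%) of the increased mRNAs in the HL population and for 404 (61.4%) in the ML population. For all tested genes the shares were 28.6% in HL and 32.5% in ML. For decreased mRNAs +2 was the highest of these times for 44 of 213 (20.7%) in HL and 159 (74.6%) in ML, against 31.2% in HL and 32.1% in ML of all genes. The ML libraries at +2 entered both the calls and these counts, so the ML shares are partly fixed by the selection. *SGA1* had 98.0, 87.9, and 81.1 FPKM in HL and 32.6, 29.2, and 25.8 FPKM in ML at +2. At −2 it had 156, 151, and 162 FPKM in HL and 154, 148, and 150 FPKM in ML. Its level was thus lower at +2 than at −2 in both populations, and further below in ML.

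**Figure D5:**
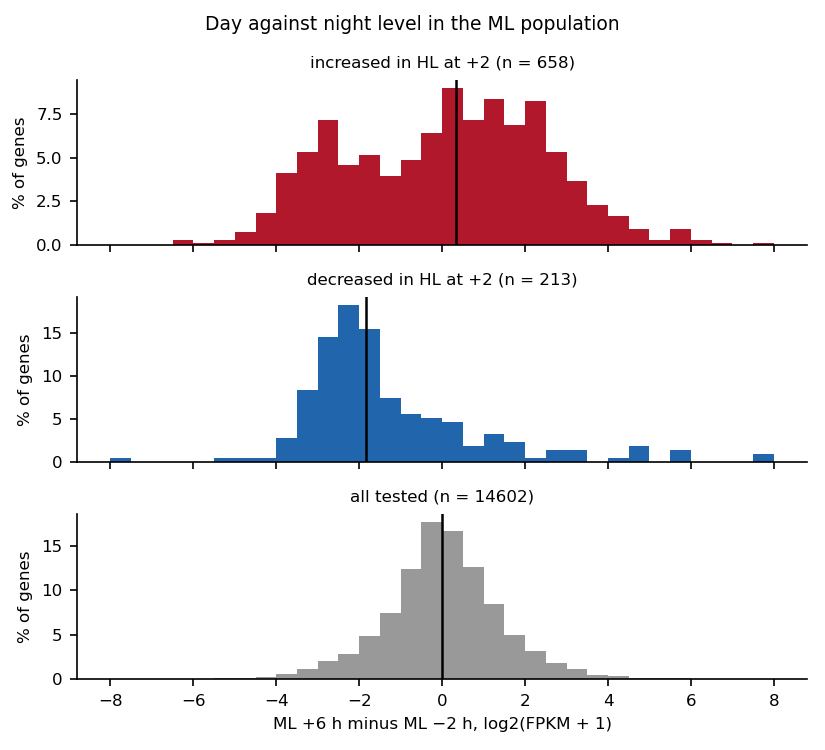
Level at +6 h minus level at −2 h in the ML population, on log2(FPKM + 1), as the percentage of genes per bin of 0.5 for mRNAs increased in HL at +2 (top), decreased (middle), and all tested genes (bottom); vertical lines are medians. Decreased mRNAs center at −1.84 and increased mRNAs form peaks on either side of 0, with a median of 0.33.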

How the data were processed

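Poly(A) RNA was sequenced by the authors in 45 libraries with strand-specific reads, aligned with STAR 2.4.0j to the CC-4532 v6.1 assembly, and quantified with cuffdiff 2.0.2. The deposited table used here holds 1 FPKM value per gene and library, normalized by the authors, for 17609 genes; 874 were at 0 throughout. A second deposited table holds FPKM means per group and was not used. Read counts were not used here. The authors used DESeq2 on counts, and FPKM values were not treated as counts.

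A gene was kept where 3 or more libraries reached an FPKM of 1, which left 14602, and these were tested on log2(FPKM + 1), a pseudocount of 1, with limma 3.58.1 in R 4.3.3, in 1 model of 15 groups over all libraries with moderated variance and a trend. Interactions used contrasts of the same model. Summaries used Python 3.11.15, numpy 2.4.6, and pandas 2.3.3. Replicates are separate runs. The p-values rest on the spread between replicates pooled over the 15 groups, not on that of the 6 compared libraries alone. The depth behind an FPKM is known only as a relative estimate from the values.

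Named genes were the 8 largest increases and 8 largest decreases with a symbol and 2 of each without one (called and not overlapping), a fixed set of photoprotection and CCM genes, and for each of 40 lists the 2 called members of largest change, or the most abundant member where none was called. Other genes were chosen after their values were seen. The members and lists were chosen with earlier results of these data known. *GLD2* was removed from the photorespiration list after the values were seen, because it is described as glucose-6-phosphate dehydrogenase. On simulated data of 14602 genes for this comparison, limma called 98 of 100 genes changed by a log2 of 1.5, 100 of 100 changed by 3, and 0 others. The changed genes were drawn only from those above 2 in mean log2(FPKM + 1) in ML, with 1 spread per gene for all groups. Of the 658 increases in the real data, 127 had an ML mean below 1 FPKM, where recovery was not simulated.

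The comparison was repeated without each library, after quantile normalization, after median scaling, with a replicate block, with culture as random effect, without the trend, with only the libraries needed, without the filter, with a mean FPKM of 5 or more, with pseudocounts of 0.1 and 0.01, and at an adjusted p of 0.05.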

Additional observations from a re-analysis of the deposited data

Results flagged for a closer look

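The HL effect (HL minus ML, log2) differed between +2 and another time by the interaction test (limma, adjusted p below 0.01 and a difference above 1) for the genes below; differences are the effect at +2 minus that at the other time. The tests share the libraries at +2 that made the calls. Groups of 3 libraries were not tested for single libraries far from the others.

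Against −2, the effect at +2 was higher for the photoprotection genes *ELIP4* (4.25), *ELIP10* (2.49), *PSBS2* (2.12), *ELIP9* (1.64), and *LHCSR3B* (1.32). *LHCSR1* also had a higher effect at +2 (1.92), but it was called at neither time. Its log2 fold change was −1.29 at −2 and 0.64 at +2, so most of that difference lay in a lower HL level before dawn. The effect at +2 was also higher for Cre10.g460326 (4.93), *FAS2* (3.30), *ADH1* (3.21), *ZRT3* (3.21), *PFH3* (2.94), *SLT2* (2.46), *CDO1* (2.07), and *GLD2* (2.05). The effect was lower at +2 for the antenna genes *LHCBM4* (−2.68) and *LHCBM8* (−1.67), the iron genes *FEA1* (−2.50) and *FRE1* (−2.08), *SULTR1* (−2.19), and *RHP1* (−1.16).

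Against +6, the effect at +2 was higher for the sulfate genes *SLT2* (4.47), *SULP2* (2.53), *SULP3* (2.44), *OASTL3* (2.33), *SABC1* (2.29), and *SIR2* (2.29). It was higher for *PFH3* (4.59), *SELW2* (4.39), *CYC6* (4.05), *UPM1* (3.70), *GLD2* (3.46), *ZRT3* (3.45), *ADH1* (3.17), *CDO1* (2.54), Cre10.g460326 (2.54), *FAS2* (2.33), *ELIP4* (1.75), *LHCSR3B* (1.31), and *PSBS2* (1.06). It was lower for the ribosome genes *NEP1* (−2.36), *SUR6* (−2.26), *RBG1* (−2.14), *NOP58* (−1.91), and *NOP10* (−1.80), for *PHC18* (−3.84), *FEA1* (−1.74), *SULTR1* (−1.46), *RHP1* (−1.32), and *LHCBM4* (−1.30), and for *ELIP9* (−1.84), *LHL4* (−1.77), *ELIP5* (−1.16), and *ELIP7* (−1.11), whose effect was larger at +6.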

How the results depend on the processing

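Leaving out 1 of the 6 libraries gave between 618 and 714 increases and between 178 and 232 decreases at +2. Pseudocounts of 0.1 and 0.01 gave 1344 and 1473 increases, and median scaling gave 321 decreases; 746 of its 854 calls were among the 871. For the difference from −2, the effect at +2 was higher for 1052 and 1100 mRNAs with pseudocounts of 0.1 and 0.01 and for 363 after quantile normalization, and lower for 276 with median scaling. For the difference from +6, it was higher for 956 and 992 mRNAs with these pseudocounts. The median day position of decreased mRNAs was −2.25 with a pseudocount of 0.1. The cause of these changes was not tested. All other alternatives kept these counts within 1.5 times, among them an adjusted p threshold of 0.05. Of 101 named genes, 18 lost or gained a call under at least 1 alternative, and no called value changed sign. *ZRT3* and *FAP199* lost the call with only the libraries at +2 (adjusted p of 0.0162 and 0.0205), *NII1* with a pseudocount of 0.01 (0.0107), and *COX11* under median scaling and quantile normalization (log2 fold changes of 0.99 and 0.85), while *CAH1*, *CAH4*, and *CAH5* gained it after quantile normalization (1.18, 1.65, and 1.47).

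Whether replicate numbers pair the HL and ML libraries cannot be settled from these values. Deviations from the group means correlated at 0.108, 0.038, and 0.114 for replicates 1, 2, and 3 between HL and ML. For unlike numbers they correlated between −0.095 and −0.007. Each library thus correlated best with its own number, though weakly, a hint from the data and not from the design. Deviations within a group cancel out, so the values for unlike numbers are tied to those for like numbers and are not separate evidence. With the replicate block, 660 mRNAs were increased and 212 decreased. A low FPKM rests on few fragments, so that differences of mRNAs near 0 are known only roughly.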
